A study of Mus musculus with 24 samples.

Results

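TRAJ17, TRAJ16, TRAJ15, TRAJ13, TRAJ12 and TRAJ11 are 6 neighbouring J segments in the 3′ part of the mouse T cell receptor alpha locus, and they were taken by name as 6 of the 43 J columns in each Tcra table. The study profiled receptor transcripts of thymocytes from Satb1 knockout mice and from wild-type mice. The Tcra chain was measured in 3 knockout libraries and 3 wild-type libraries, which are 6 of the 24 libraries in the series. Both groups were thymus samples on the C57BL/6 background from animals aged 4 to 12 weeks, with no treatment named. The knockout is given as Satb1-/- in the labels and as a conditional knockout in the series design, and the driver of the deletion is not given in the sources used here. Satb1 transcripts and cell type markers are not measured in these tables, so neither the genotype nor the thymocyte label could be checked. The labels do not say whether replicates came from separate mice, so the p-values cover only library-to-library spread, which may be technical.

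A T cell receptor alpha chain is made by joining a V segment to a J segment, each cut at a recombination signal beside it. The first joins in a thymocyte use V segments near the J array and J segments at its 5′ end. Further rounds on the same chromosome replace that join with a more upstream V segment and a more 3′ J segment, until a useful receptor is made or the cell dies. J segments such as these 6, towards the constant region gene Trac, are therefore reached mostly by later rounds. Satb1 is a nuclear protein that folds chromatin and is abundant in thymocytes.

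The 6 segments lie on the plus strand of chromosome 14 in GRCm38 (GENCODE M21), between 54201775 and 54207197, a stretch of 5423 bases. Each is annotated as a J gene whose transcript is 1 exon, and their 3′ ends lie 18684 bases (TRAJ17) to 13324 bases (TRAJ11) before Trac. The pseudogene Traj14 (54205111 to 54205144) lies between TRAJ15 and TRAJ13 and has no column. The sequences are shown because the J segment is the identity that each share counts, and because reads are assigned to a J column by these bases. They were taken from the GENCODE M21 transcripts and run 5′ to 3′, with capitals marking the match to TTTGG, any 4 bases and GG, the codons of the Phe-Gly-X-Gly motif that closes the third hypervariable loop:
TRAJ17 (chr14:54201775-54201837): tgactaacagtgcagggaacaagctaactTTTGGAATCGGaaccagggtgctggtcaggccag
TRAJ16 (chr14:54203134-54203194): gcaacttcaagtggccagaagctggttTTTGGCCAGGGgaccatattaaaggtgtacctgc
TRAJ15 (chr14:54204422-54204481): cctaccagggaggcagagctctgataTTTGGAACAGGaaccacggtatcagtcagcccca
TRAJ13 (chr14:54205741-54205797): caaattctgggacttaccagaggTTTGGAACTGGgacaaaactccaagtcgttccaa
TRAJ12 (chr14:54206553-54206610): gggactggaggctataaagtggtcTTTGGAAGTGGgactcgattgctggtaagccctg
TRAJ11 (chr14:54207139-54207197): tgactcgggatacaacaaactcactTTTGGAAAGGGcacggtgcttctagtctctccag

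Both strands were searched, and the pattern was found on the sense strand only: once in each of the 6, in 76.7% of the 43 J segments with a column and in 60% of all 60 annotated J segments. The pattern fixes the Phe codon as TTT, so these percentages leave out J segments that spell the motif otherwise. Between 23 bases (TRAJ13) and 29 bases (TRAJ17) precede the match in the 6, the part that enters the hypervariable loop. The members differ from each other by 22 to 31 single-base edits over lengths of 57 to 63 bases. The nearest other J segment is 19 edits from TRAJ17 (TRAJ39) and 21 to 25 edits from the other 5, so none of the 6 has a near-identical copy among annotated J segments.

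A pair is a V row joined to a J column, and its value is its percentage of all the joins in a library. The tables hold no counts, so the depth is unknown and no counting intervals are given. The smallest value above 0 was 0.0180%, 0.0593% and 0.117% in knockout replicates 1, 2 and 3, against 0.0158%, 0.0157% and 0.0241% in wild-type replicates 1, 2 and 3. Knockout replicates 2 and 3 were thus the coarsest libraries, and a listing at 0 there says only that a pair was not listed. Of the 702 possible pairs of the 117 V rows with the 6 columns, 131, 23 and 9 were above 0 in the knockout libraries, against 297, 302 and 207 in the wild-type libraries.

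Knockout replicate 1 stood apart from the other knockout libraries in these columns and shared pairs with wild-type replicate 1. Of the 74 pairs with the 6 J segments that wild-type replicate 1 held and the other wild-type libraries did not, 15 were listed in knockout replicate 1 and 2 in knockout replicate 2. Of the 74 pairs held by wild-type replicate 2 alone, 1 was listed in knockout replicate 1, and of the 35 pairs held by wild-type replicate 3 alone 0 were. Over the 702 pairs the Pearson correlation of knockout replicate 1 was 0.57 with wild-type replicate 1, 0.40 with replicate 2 and 0.32 with replicate 3, a description across pairs that share library depth and common V rows. Whether material or reads passed between these libraries was not tested, and results are given with and without knockout replicate 1 below.

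All 6 J segments were lower in the knockout. Together they held 3.97%, 1.90% and 1.64% of the 3 knockout libraries, against 15.6%, 16.0% and 13.6% of the 3 wild-type libraries. The knockout mean was 2.50% ± 1.28 and the wild-type mean 15.1% ± 1.26 (SD, n = 3 each), so that the knockout held 16.6% of the wild-type share, or 11.7% without knockout replicate 1. No knockout library reached the wild-type range. Whether the shares count reads or clonotypes is not given. If reads were counted, fewer cells carrying such a join cannot be told apart from less receptor RNA per cell.

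TRAJ17, the most 5′ of the 6, held 0.650%, 0.178% and 0% in the knockout libraries, against 3.41%, 3.04% and 2.53% in the wild-type libraries. Knockout replicate 1 was the highest of the knockout libraries, and the groups did not overlap. The mean was 0.276% ± 0.336 in the knockout and 2.99% ± 0.442 in wild type (SD, n = 3 each), and 0.0890% in the knockout without replicate 1.

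TRAJ16 held 0.325% in knockout replicate 1 and was listed at 0 in both other knockout libraries, against 1.70%, 2.08% and 1.44% in the wild-type libraries. Its knockout share therefore came from the library that shares pairs with wild-type replicate 1. TRAJ13 held 0.469%, 0.119% and 0% in the knockout libraries, against 1.84%, 1.89% and 1.64% in the wild-type libraries. TRAJ11, the most 3′ of the 6, held 0.325%, 0.0593% and 0% in the knockout libraries, against 1.33%, 1.46% and 1.06% in the wild-type libraries. In both segments knockout replicate 1 was again the highest knockout library, and every knockout library lay below every wild-type library. Without replicate 1 the knockout mean was 0.0593% for TRAJ13 and 0.0297% for TRAJ11.

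By knockout mean, TRAJ15 and TRAJ12 kept more of their share. TRAJ15 held 0.956%, 0.356% and 1.52% in the knockout libraries, against 3.28%, 2.99% and 2.38% in the wild-type libraries, and its highest knockout value was in replicate 3, where 4 of the 6 segments were listed at 0. TRAJ12 held 1.25%, 1.19% and 0.117% in the knockout libraries, against 4.01%, 4.56% and 4.60% in the wild-type libraries. Replicate 3 was the low one, at the smallest value of that library, where TRAJ17, TRAJ16, TRAJ13 and TRAJ11 were listed at 0. In replicate 3 TRAJ12 thus lay above those segments by a single smallest value only, a step too coarse to say that it kept more there. The knockout mean was 32.8% of the wild-type mean for TRAJ15 and 19.4% for TRAJ12, against 6.23% for TRAJ16, 9.23% for TRAJ17, 9.97% for TRAJ11 and 11.0% for TRAJ13. Without knockout replicate 1 these became 32.6% for TRAJ15 and 14.8% for TRAJ12, and 0% to 3.32% for the other 4.

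**Figure D1:**
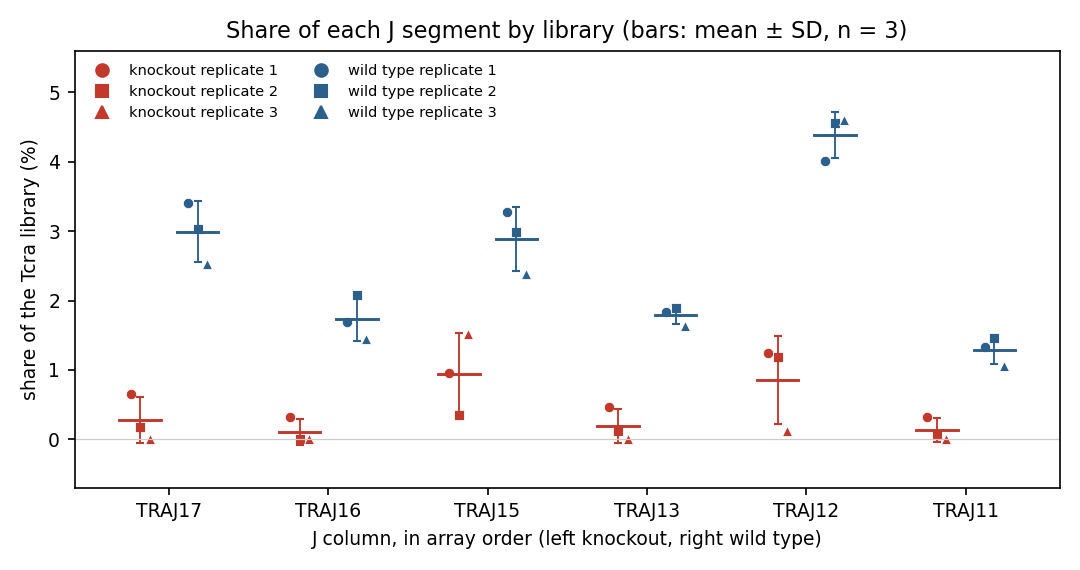
Share of each of the 6 J segments (y axis, percent of the Tcra library) in the 3 knockout libraries (red, left) and the 3 wild-type libraries (blue, right), with symbols for replicates and lines for mean ± SD. Every knockout point lies below every wild-type point of its segment, with the knockout maximum at 1.52% for TRAJ15.

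In wild type TRAJ12 was the most used of the 6 (4.39% ± 0.329, the second highest mean of the 43 J columns), above TRAJ17 and TRAJ15 (2.88% ± 0.458), whose library ranges overlapped. TRAJ13 (1.79% ± 0.133) and TRAJ16 (1.74% ± 0.318) came next, again with overlapping ranges. TRAJ11 was the lowest (1.28% ± 0.206, SD, n = 3 each), ranking 37 of 43, and its range overlapped that of TRAJ16 but not that of TRAJ13. In the knockout the order was TRAJ15 (0.945% ± 0.584), TRAJ12 (0.850% ± 0.635), TRAJ17, TRAJ13 (0.196% ± 0.244), TRAJ11 (0.128% ± 0.173) and TRAJ16 (0.108% ± 0.188), and the library ranges of all neighbours in this order overlapped.

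The difference was tested with limma on log2(percent + 0.0157) over all 43 J columns, with Benjamini-Hochberg adjustment over the 43. All 6 were called lower in the knockout at an adjusted p of 0.05, in a table where 46.5% of J columns were called lower. The log2 fold change was -5.31 ± 1.28 (SE) for TRAJ16 (adjusted p = 0.0300), -4.56 ± 1.37 for TRAJ17 (0.0358), -4.16 ± 1.24 for TRAJ13 (0.0358) and -4.13 ± 1.11 for TRAJ11 (0.0349). It was -2.91 ± 0.93 for TRAJ12 (0.0394) and -1.81 ± 0.57 for TRAJ15 (0.0382). Fold changes on this scale depend on the pseudocount where libraries are listed at 0. The groups did not overlap in any of the 6, and in 53.5% of the 43 J columns every knockout library lay below every wild-type library.

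The calls rested on all 3 wild-type libraries and on knockout replicate 2. Limma called 0 of the 6 without wild-type replicate 1, 2 or 3 (adjusted p between 0.0923 and 0.110) and 0 without knockout replicate 2 (adjusted p between 0.0510 and 0.0727), with all 6 log2 fold changes still below 0. The counts at an unadjusted p under 0.05 were 3, 4 and 5 without wild-type replicate 1, 2 or 3 and 6 without knockout replicate 2. The array lost its calls in the same fits: 2, 0 and 5 of the 43 J columns were called without wild-type replicate 1, 2 or 3 (0 lower in each case), and 12 without knockout replicate 2 (5 lower). Without knockout replicate 1, 5 were called, and TRAJ15 was not (log2 fold change -1.93, adjusted p = 0.0580, within a range of 0.00974 to 0.665 over its 14 alternatives). Shares sum to 100, so a gain elsewhere in the array lowers these columns. After each library's log values were centred, the median of all 43 J columns moved from -1.54 to -0.08, and the calls over the array went from 20 lower and 8 higher to 9 lower and 12 higher in the knockout. On the centred scale TRAJ16 (-3.85), TRAJ17 (-3.10), TRAJ13 (-2.70) and TRAJ11 (-2.67) were still called lower, while TRAJ12 (-1.45, adjusted p = 0.138, within a range of 0.00314 to 0.189) and TRAJ15 (-0.35, adjusted p = 0.665, the highest of its range) were not.

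The make-up of the 6 columns' sum also differed, most in the coarse knockout replicates 2 and 3. TRAJ15 and TRAJ12 together made up 55.5%, 81.3% and 100% of the sum in the knockout libraries, against 46.8%, 47.2% and 51.1% in the wild-type libraries. The 3 knockout libraries differed among themselves: TRAJ12 made up 62.5% in replicate 2 and 7.14% in replicate 3, where TRAJ15 made up 92.9%. A single smallest value of the library makes up 3.125% of this sum in replicate 2 and 7.14% in replicate 3. These percentages therefore move in large steps, and TRAJ15 and TRAJ12 were grouped after their values were seen. Wild-type libraries were alike, with TRAJ12 between 25.8% and 33.7% and TRAJ15 between 17.5% and 21.1%. The composition of knockout replicate 1, with TRAJ12 at 31.4% and TRAJ15 at 24.1%, was the nearest to wild type.

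**Figure D2:**
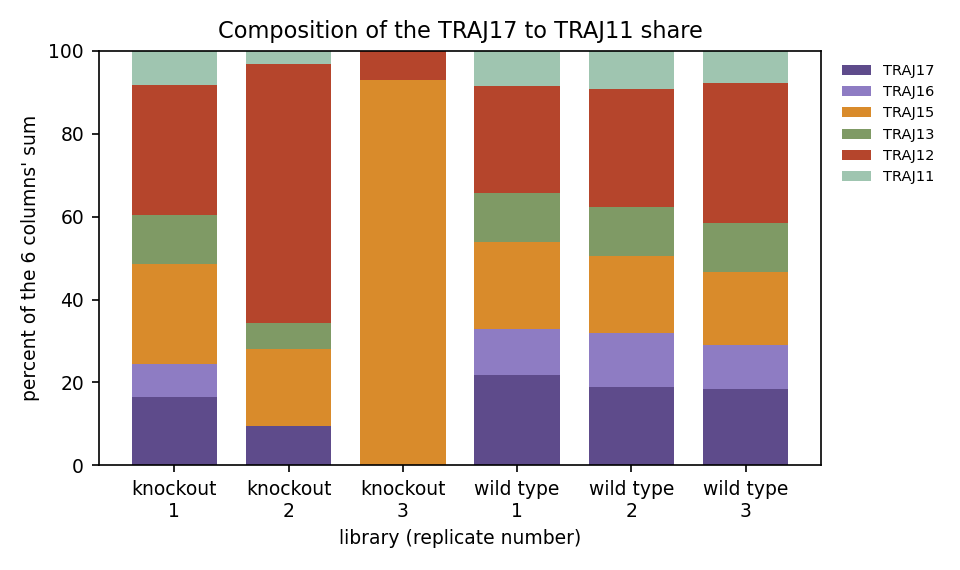
Composition of the 6 columns' summed share (y axis, percent of that sum) in each knockout library and each wild-type library (x axis), with 1 colour per J segment. TRAJ15 fills 92.9% of knockout replicate 3 and TRAJ12 62.5% of knockout replicate 2, while the 3 wild-type libraries hold all 6 segments in like proportions. Knockout replicates 2 and 3 resolve this sum only in coarse steps.

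Beside their neighbours in the array, the 6 columns lay between the 7 columns TRAJ28 to TRAJ21 on the 5′ side and the 6 columns TRAJ9 to TRAJ2 on the 3′ side. The summed share of TRAJ28 to TRAJ21 was 4.50% ± 1.74 in the knockout and 16.2% ± 0.368 in wild type, that of TRAJ9 to TRAJ2 1.48% ± 1.47 and 12.8% ± 3.54 (SD, n = 3 each). The knockout thus kept 27.8%, 16.6% and 11.6% of the wild-type share in the 3 stretches from 5′ to 3′, and 21.7%, 11.7% and 5.09% without knockout replicate 1. In TRAJ28 to TRAJ21, 3 of 7 columns fell by limma and 0 rose (median log2 fold change -2.08), in TRAJ17 to TRAJ11 6 of 6 fell (median -4.14), and in TRAJ9 to TRAJ2 6 of 6 fell (median -3.74), beside a median of -1.54 and 46.5% called lower over all 43 columns. On the centred scale 0 of 7 fell in TRAJ28 to TRAJ21 (median -0.63), 4 of 6 in TRAJ17 to TRAJ11 (median -2.69) and 4 of 6 in TRAJ9 to TRAJ2 (median -2.29). Differences between the stretches were not tested. Of the 14 3′ J columns (TRAJ21 and lower numbers), 13 fell and 0 rose, with these 6 among them, and of the 13 5′ J columns (TRAJ42 and higher numbers) 0 fell and 8 rose. On the centred scale 9 of the 14 fell and 11 of the 13 rose.

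**Figure D3:**
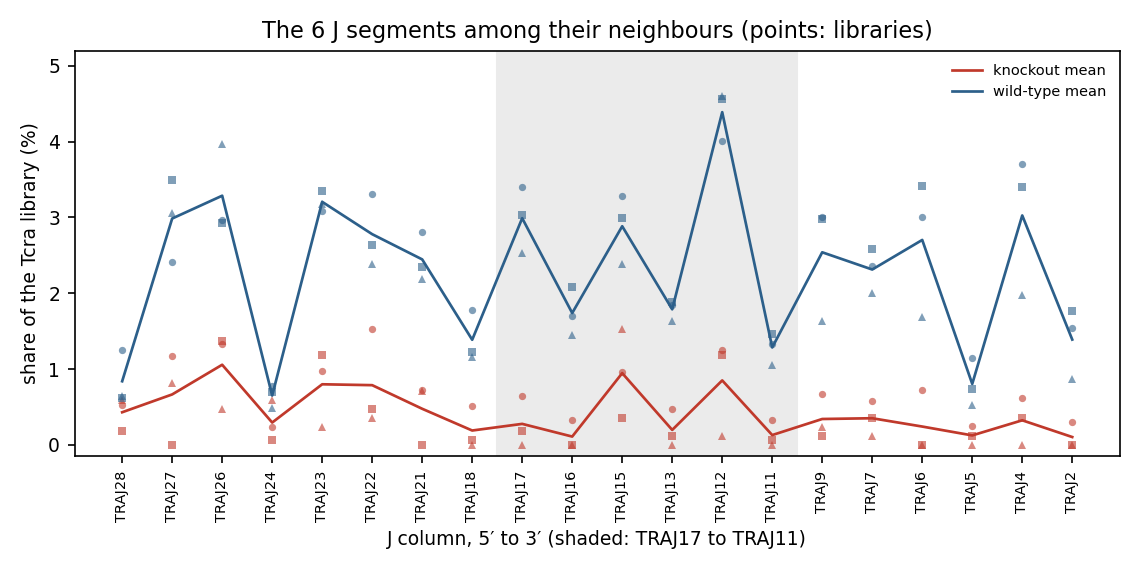
Share of each J column from TRAJ28 to TRAJ2 (y axis, percent of the Tcra library, x axis in 5′ to 3′ order), with points for libraries, lines for the knockout mean (red) and the wild-type mean (blue), and TRAJ17 to TRAJ11 shaded. The wild-type mean peaks at TRAJ12 (4.39%), and within the shaded columns the knockout mean is highest at TRAJ15 (0.945%) and TRAJ12 (0.850%).

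Over the 6 libraries, the J columns outside the 6 whose log2 shares were most like a member's were TRAJ5 for TRAJ17 (Pearson r = 0.99), TRAJ2 for TRAJ16 (0.998), TRAJ24 for TRAJ15 (0.96), TRAJ18 for TRAJ13 and for TRAJ11 (both 0.99) and TRAJ23 for TRAJ12 (0.99). Next came TRAJ4 and TRAJ18 for TRAJ17, TRAJ31 and TRAJ6 for TRAJ16, TRAJ21 and TRAJ27 for TRAJ15, TRAJ5 and TRAJ4 for TRAJ13, TRAJ4 and TRAJ26 for TRAJ12, and TRAJ30 and TRAJ7 for TRAJ11. All these columns share the difference between the groups, which alone gives a high r over 6 libraries, so the values are a description.

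The second question was which V rows supply the 6 J segments. In wild type the supply was broad. Between 23 and 60 V rows were joined to each J segment in a library, and the 3 leading V rows made up 23.2% to 29.4% of a column on average. Over the 3 wild-type libraries, 437 of the 702 pairs were above 0 in at least 1 library and 115 in all 3. TRAV7D-5 was the first V row of TRAJ17, TRAJ13, TRAJ12 and TRAJ11 and the second of TRAJ16 and TRAJ15. It supplied 8.86% ± 2.28 of the 6 columns' sum, ahead of TRAV12D-3 (5.17% ± 1.76), TRAV6-7-DV9 (5.04% ± 1.52), TRAV3D-3 (4.79% ± 0.980) and TRAV7-4 (4.72% ± 0.645, SD, n = 3 each).

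The leading pair was TRAV7D-5 with TRAJ12, at 0.126%, 0.0593% and 0% in the knockout libraries, against 0.555%, 0.472% and 0.265% in the wild-type libraries. TRAV7D-5 with TRAJ17 followed, at 0.0722% in knockout replicate 1 alone, against 0.396%, 0.299% and 0.144% in the wild-type libraries. The groups did not overlap in either pair. TRAV12D-3 led TRAJ15, at 0.0722% in knockout replicate 1 alone, against 0.269%, 0.252% and 0.217% in the wild-type libraries, a pair that varied little among wild-type libraries. TRAV3D-3 led TRAJ16, at 0.0180% in knockout replicate 1 alone, against 0.111%, 0.252% and 0.120% in the wild-type libraries. TRAV7D-5 led both remaining columns, and there its wild-type values were scattered: 0.333%, 0.126% and 0.0241% with TRAJ13 and 0.111%, 0.220% and 0.0241% with TRAJ11. In these 2 pairs the groups overlapped, with knockout values of 0.108%, 0.0593% and 0% for TRAJ13 and 0.0361%, 0.0593% and 0% for TRAJ11. V segments of the D and N copies of a family are nearly identical, so the split of a family between TRAV7D-5, TRAV7N-5 and TRAV7-5 and the like is uncertain. With the 3 copies summed, TRAV7-5 supplied 11.4%, 21.9% and 7.14% of the 6 columns' sum in the knockout libraries, against 13.3%, 13.6% and 9.52% in the wild-type libraries, so its part of what remained overlapped between the groups.

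A few V rows recurred below the leaders. In wild-type means TRAJ17 was next joined to TRAV6-7-DV9 (0.202%) and TRAV7-4 (0.149%), TRAJ16 to TRAV7D-5 (0.153%) and TRAV6-7-DV9 (0.0819%), and TRAJ15 to TRAV7D-5 (0.209%) and TRAV12-2 (0.151%). TRAJ13 was next joined to TRAV6-7-DV9 (0.0983%) and TRAV12D-3 (0.0929%), TRAJ12 to TRAV7-4 (0.241%) and TRAV3D-3 (0.233%), and TRAJ11 to TRAV6-7-DV9 (0.0790%) and TRAV4-4-DV10 (0.0695%). Thus TRAV6-7-DV9 stood among the first 3 V rows of 4 of the 6 columns. In the knockout the leading V row by mean was TRAV3-3 for TRAJ17 (0.0258%), TRAV7D-5 for TRAJ13 (0.0559%) and TRAJ11 (0.0318%), TRAV6-7-DV9 for TRAJ15 (0.0979%) and TRAV21/DV12 for TRAJ12. TRAJ16 had no single leader, since TRAV7D-5, TRAV13D-2 and TRAV16D-DV11 tied at 0.0120%, all of it from knockout replicate 1. TRAV7D-5 was thus the leader of TRAJ13 and TRAJ11 in both groups.

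The V rows used by the 6 columns resembled each other. Across the 117 V rows, the Pearson correlation of wild-type mean shares between 2 of the 6 columns lay between 0.72 (TRAJ16 and TRAJ11) and 0.87 (TRAJ16 and TRAJ12), and that of a member with the sum of the other J columns between 0.79 (TRAJ11) and 0.91 (TRAJ12). These are correlations across V rows of the same libraries, which share the rows' overall abundance.

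In the wild-type libraries, 3 V rows near the J array made up a smaller part of the 6 columns than of the rest of the array. Limma was run on the within-library log2 ratio of each V row's share of the 6 columns to its share of the other 37 columns, in the 3 wild-type libraries, over 48 V rows with a mean of at least 0.5%. Of these, 3 were called, all lower in the 6 columns: TRDV1, TRAV21/DV12 and TRAV17 (6.25% of V rows called lower, 0 called higher and 5 at an unadjusted p under 0.05). The filter averaged the 6 columns and the other columns. TRDV1 and TRAV17 passed it through their values in the other columns, so this count is no support of its own. TRDV1, a delta V segment (53881612 to 53882217), made up 0.125% ± 0.0441 of the 6 columns, against 1.17% ± 0.291 of the other columns (log2 ratio -2.50 ± 0.32 SE, adjusted p = 0.00399, lower in 3 of 3 libraries). Its values in the 6 columns (0.102%, 0.0982% and 0.176%) were a single smallest value of each wild-type library. The lowest of them is also the pseudocount of 0.0982, so the small SD and SE of TRDV1 reflect this listing floor. TRAV21/DV12 (53875984 to 53876752), which serves the alpha and the delta chain, made up 0.512% ± 0.210, against 2.19% ± 0.426 (log2 ratio -1.96 ± 0.37 SE, adjusted p = 0.0261, lower in 3 of 3 libraries). TRAV17 (53806639 to 53807115) varied between 0%, 0.0982% and 1.06% of the 6 columns in wild-type replicates 1, 2 and 3. It made up 0.385% ± 0.585 of them, against 2.03% ± 0.172 (log2 ratio -2.92 ± 0.66 SE, adjusted p = 0.0461, lower in 3 of 3 libraries). TRAV19 and TRDV2-2 fell under the filter, and are named because of their values: they were listed at 0 in the 6 columns in all 3 wild-type libraries and made up 0.890% ± 0.196 and 0.592% ± 0.0784 of the other columns (SD, n = 3).

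Without wild-type replicate 2, 0 V rows were called by limma (2 at an unadjusted p under 0.05, adjusted p for TRDV1 = 0.308, within a range of 1.94e-06 to 0.308 over its 6 alternatives). The log2 ratio of TRDV1, which rests on the listing floor in the 6 columns, was still -2.50. Set against the neighbouring columns TRAJ28 to TRAJ21 and TRAJ9 to TRAJ2 in place of all others, 0 of 46 V rows were called by limma (1 at an unadjusted p under 0.05, lowest adjusted p = 0.850). TRDV1 and TRAV17 fell under the filter in that fit and were not tested there. TRAV21/DV12 then made up 0.512% of the 6 columns and 0.563% of the neighbours (log2 ratio -0.02, 95% interval -1.07 to 1.03).

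For the knockout, V–J pairs were tested with limma over the 202 Tcra pairs whose mean over the 6 libraries was 0.1% or more. Of the 702 pairs with a member J segment, 12 passed that filter: 6 with TRAJ12, 3 with TRAJ15, 2 with TRAJ17, 1 with TRAJ13 and 0 with TRAJ16 or TRAJ11. Of the 12, 8 were called lower and 0 higher, in a table where 12.9% of pairs were called lower and 22.8% higher. Most of the 12 passed through their wild-type values, so this count is no support of its own. On the centred scale the same 8 were called, while the calls over all pairs went from 26 lower and 46 higher to 27 lower and 9 higher in the knockout.

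The 8 pairs that fell were TRAJ12 with TRAV3D-3, TRAV7-4, TRAV4-4-DV10, TRAV7D-5 and TRAV12D-3, TRAJ17 with TRAV7D-5 and TRAV6-7-DV9, and TRAJ15 with TRAV12D-3. Their log2 fold changes lay between -3.38 (TRAV3D-3 with TRAJ12, adjusted p = 0.0194) and -2.45 (TRAV12D-3 with TRAJ12, adjusted p = 0.0404). TRAV3D-3 with TRAJ12 held 0.0361% in knockout replicate 1 and 0% in the others, against 0.285%, 0.173% and 0.241% in the wild-type libraries. For 6 of the 8 pairs the whole knockout share came from replicate 1; the exceptions were TRAV7D-5 and TRAV12D-3 with TRAJ12, each at 0.0593% in replicate 2. The same 8 were called without knockout replicate 1. Without knockout replicate 2 limma called 1 pair, TRAV7-5 with TRAJ12, which is not among the 8. It called 1, 0 and 2 pairs without wild-type replicate 1, 2 or 3, with 8 of the 12 at an unadjusted p under 0.05 in each case.

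The 4 pairs not called were TRAV7-5 with TRAJ12 (log2 fold change -2.18, adjusted p = 0.0894), TRAV7D-5 with TRAJ15 (-1.32, 0.138), TRAV7D-5 with TRAJ13 (-1.25, 0.330) and TRAV6-7-DV9 with TRAJ15 (-0.69, 0.611). TRAV6-7-DV9 with TRAJ15 held 0%, 0.0593% and 0.234% in the knockout libraries, against 0.111%, 0.0315% and 0.193% in the wild-type libraries, and the groups overlapped. TRAV7D-5 with TRAJ15 held 0.0541%, 0.0593% and 0.117%, against 0.174%, 0.189% and 0.265%, and was the only one of the 702 pairs above 0 in all 3 knockout libraries. With D and N copies summed, 22 member pairs passed the filter and 17 fell, in a fit where 61 of 268 pairs were called lower and 45 higher, with TRAJ16 then represented by TRAV3-3 (log2 fold change -3.39) and TRAV7-5 (-3.22). Most of the 22, with both pairs of TRAJ16 among them, passed through their wild-type values, so this count is no support of its own either. The 5 not called were 4 pairs of TRAJ15 (with TRAV4-4, TRAV7-5, TRAV16 and TRAV6-7) and TRAV7-5 with TRAJ13.

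**Figure D4:**
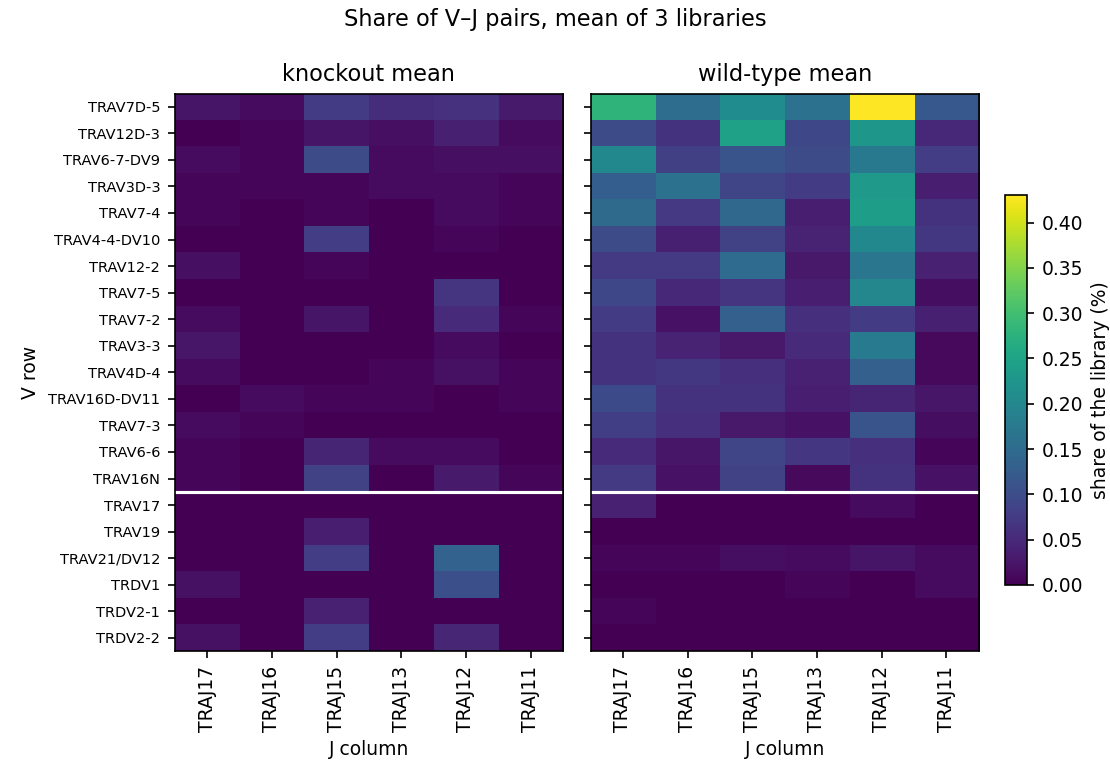
Mean share of V–J pairs (colour, percent of the library, the same scale in both panels) for the 6 J segments (x axis) in 3 knockout libraries (left) and 3 wild-type libraries (right). Rows above the white line are the 15 V rows that supply most in wild type, and rows below it are J-proximal V rows; the brightest wild-type pair is TRAV7D-5 with TRAJ12 at 0.430%, and TRAV21/DV12 with TRAJ12 reaches 0.136% in the knockout.

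What remained of the 6 columns in the knockout was joined in part to V rows that were rare there in wild type. The 8 V rows nearest to the J array (TRAV17, TRAV19, TRAV21/DV12, TRDV1, TRDV2-1, TRDV2-2, TRDV4 and TRDV5, a group chosen with earlier results known) supplied 10.9%, 34.4% and 35.7% of the 6 columns' sum in the knockout libraries, against 0.916%, 0.491% and 1.76% in the wild-type libraries. As a share of the library these pairs held 0.433%, 0.652% and 0.586% in the knockout, against 0.143%, 0.0787% and 0.241% in wild type, so they were higher in every knockout library although the columns as a whole were lower. In the other 37 columns the same V rows supplied 32.3% ± 1.71 in the knockout and 7.10% ± 0.801 in wild type (SD, n = 3 each). In wild type the 6 columns thus lay below the rest of the array in this measure. In knockout replicates 2 and 3 they lay near it (34.4% and 35.7% in the 6 columns, against 33.1% and 33.4% in the others). There a single smallest value of the library makes up 3.125% and 7.14% of the 6 columns' sum, more than these gaps. No test was made of these sums. Knockout replicate 1, the library that shares pairs with wild-type replicate 1, was the lowest of the 3.

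These joins were listed mostly with TRAJ12 and TRAJ15, the members that kept the most of their share by knockout mean. These columns together made up 81.3% and 100% of the 6 columns' sum in knockout replicates 2 and 3. Such joins thus had little room elsewhere in those libraries, and they are themselves part of the share that was kept. TRAV21/DV12 with TRAJ12 was the leading knockout pair of the 6 columns, at 0.289%, 0.119% and 0% in the knockout libraries, against 0.0317%, 0.0157% and 0.0241% in the wild-type libraries. TRDV1 with TRAJ12 held 0.0180%, 0.297% and 0% in the knockout and was listed at 0 in all 3 wild-type libraries. TRAV21/DV12 and TRDV2-2 with TRAJ15 each held 0.234% in knockout replicate 3 and 0% in both other knockout libraries. In wild type TRAV21/DV12 with TRAJ15 held 0.0317%, 0.0157% and 0%, and TRDV2-2 with TRAJ15 was listed at 0. None of these 4 pairs is above 0 in all 3 knockout libraries, so each rests on 1 or 2 libraries. J-proximal V rows made up 26.1%, 45.0% and 0% of TRAJ12 in the knockout libraries, against 0.791%, 0.690% and 1.05% in the wild-type libraries. For TRAJ15 they made up 11.3%, 0% and 38.5%, against 0.966%, 0.526% and 0%. With TRAJ16, TRAJ13 and TRAJ11 no such pair was listed in any knockout library, and with TRAJ17 TRDV1 and TRDV2-2 were listed in replicate 2 alone, at 0.0593% each. They made up 66.7% of TRAJ17 in that library, where only 3 V rows were joined to it. Knockout replicates 2 and 3 together listed 0, 2 and 1 pairs of TRAJ16, TRAJ13 and TRAJ11, so a lack of J-proximal pairs there says little.

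The neighbouring stretches differed in the same measure. In TRAJ28 to TRAJ21 the J-proximal V rows supplied 15.0%, 29.1% and 31.3% in the knockout, against 1.34%, 1.47% and 2.12% in wild type. In TRAJ9 to TRAJ2 they supplied 3.45%, 0% and 0% in the knockout, against 1.18%, 2.01% and 1.66% in wild type. The coarse knockout libraries list few pairs in these stretches, and differences between them were not tested.

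**Figure D5:**
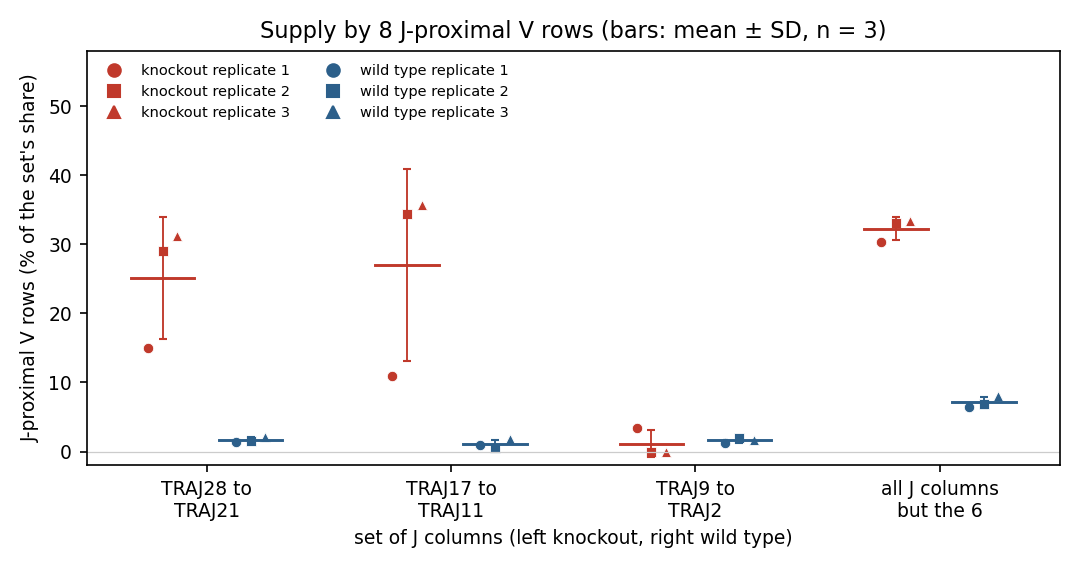
Percentage of each set of J columns (x axis) that was joined to the 8 V rows nearest to the J array (y axis), in knockout libraries (red, left) and wild-type libraries (blue, right), with symbols for replicates and lines for mean ± SD (n = 3). In TRAJ17 to TRAJ11 the knockout libraries lie at 10.9%, 34.4% and 35.7% and the wild-type libraries at or below 1.76%.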

How the data were processed

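Thymocyte RNA was reverse transcribed with 5′ RACE, amplified with a primer in the receptor's constant region and sequenced in paired reads, per the labels' protocols. Reads were trimmed with fastp, per the submitters' processing notes; the segment caller, its genome build and the counted unit (reads or clonotypes) were not given in the sources used here. The values the authors deposited are in percent: each table lists V rows against J columns, and its cells sum to 100. PCR without molecular identifiers can change such shares. All values were whole multiples of the library's smallest value (tolerance 0.01 of a multiple), but counts were not reconstructed.

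Groups came from the labels. J columns and V–J pairs with a mean of at least 0.1% were fitted with limma 3.58.1 (R 4.3.3) on log2(percent + 0.0157), the finest library's smallest value above 0, without a replicate block; p-values were adjusted (Benjamini-Hochberg) over all features of a fit, and calls made at 0.05. The V rows of the 6 columns were compared with those of the other 37 columns within wild-type libraries in the same way, with a pseudocount of 0.0982. Python 3.11.15, numpy 2.4.6, pandas 2.3.3 and matplotlib 3.10.9 were used for the other values. Fits were tested on simulated data. Names follow a rule: all 6 J segments, the 3 leading wild-type V rows and the leading knockout V row of each, all called pairs and V rows, and the 3 most alike J columns; other pairs were named after their values were seen. The members, lists and J-proximal V rows were chosen with earlier results of these data known. Of V rows, 114 of 117 and of J columns 43 of 43 matched GENCODE M21 by name. The Tcrb, Tcrg and Tcrd tables were not used here. Alternatives are given in the closing section.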

Additional observations from a re-analysis of the deposited data

How the results depend on the processing

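No direction reversed among 199 alternative values for the 6 J segments, 8 pairs and 3 V rows. The groups did not overlap in these J segments and pairs, and the V rows were lower in every wild-type library. A left-out library or another pseudocount could therefore not reverse a direction. Of the 199 values, 110 kept their side of the threshold and 89 lost the call. The count of 6 called J segments was 0 with limma at a pseudocount of 0.00157 (4 at an unadjusted p under 0.05, 16 of all 43 J columns called) and 0 with each pair counted once (4 likewise, 0 of all 43 called), and 0 to 6 with a library left out. The count of 8 called pairs was 0 with the smaller pseudocount (7 at an unadjusted p under 0.05, 5 of all 202 pairs called), 30 of 448 without a filter (140 of all 3123 called), 17 of 22 with V copies summed (106 of all 268 called), and 0 to 8 with a library left out. The count of 3 V rows was 5 with a filter of 0.1%, 0 against the neighbouring columns (where TRDV1 and TRAV17 fell under the filter), and 0 to 4 with a library left out. The difference in summed share was -9.16 percentage points with each pair counted once and -15.1 over pairs at or above 0.117%, instead of -12.6; the knockout then held 36.9% and 6.88% of the wild-type share instead of 16.6%. The difference was -13.3 to -12.1 percentage points with a library left out. With the replicate number as a block, 4 J segments (not TRAJ12 or TRAJ15) and 8 pairs were called. Nothing in the labels pairs equal numbers. Residuals of equally numbered libraries correlated at 0.23, -0.20 and 0.27 over J columns, where knockout replicate 1 correlated best with wild-type replicate 2 (0.53). Over V–J pairs they correlated at 0.063, 0.135 and 0.170, and every knockout library correlated best with its own number, a hint of pairing from the data, not the design. Not every correlation passed 0.1 in either table, so the fit without the block was kept. Unless the construction shows it, the cause of these changes was not tested. The resolution of knockout replicates 2 and 3 limits every statement on pairs under 0.117%.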

Other observations

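Pairs of the 6 J segments seen in the knockout were mostly pairs that wild type also held. Of the 131 pairs in knockout replicate 1, 122 were listed in wild-type replicate 1, 100 in replicate 2 and 70 in replicate 3. Of the 23 pairs in knockout replicate 2, 18, 16 and 15 were listed in wild-type replicates 1, 2 and 3, and of the 9 pairs in knockout replicate 3, 7, 7 and 6 were. Over all knockout libraries, 11 of 145 pairs were listed in no wild-type library. Of the 145, 115 were listed in knockout replicate 1 alone, the library that shares pairs with wild-type replicate 1. Of all 702 possible pairs, 437 were listed in at least 1 wild-type library. Among the 30 pairs listed in knockout replicate 2 or 3, 6 were listed in no wild-type library: TRDV1 and TRDV2-2 with TRAJ12, TRDV2-1 and TRDV2-2 with TRAJ15, and TRDV1 and TRDV2-2 with TRAJ17. All 6 join a delta V segment to an alpha J segment, and they are named because of their values. TRDV4 and TRDV5 were listed at 0 with the 6 J segments in all 6 libraries.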
